A study of Mus musculus with 12 samples.

Results

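The miR-34 and miR-449 microRNAs form a family of small regulatory RNAs whose 5p arms carry the same seed, the stretch near the 5′ end with which a miRNA pairs to its target mRNAs. The gene of miR-34a stands alone, miR-34b and miR-34c come from a shared transcript, and the miR-449 genes lie together in the gene Cdc20b. The transcription factor p53 is known to induce miR-34a and the miR-34b/c transcript, and the family slows the cell cycle through cyclin-dependent kinases and cyclins. The members miR-34b, miR-34c and miR-449 are best known from tissues with motile cilia, where they take part in the formation of multiciliated cells, while miR-34a is widespread in neurons.

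The family was taken as every miRNA name on the array that begins with miR-34a, miR-34b, miR-34c or miR-449, irrespective of the arm, which gave 8 of the 696 mouse names. These were mmu-miR-34a-5p, mmu-miR-34b-5p, mmu-miR-34b-3p, mmu-miR-34c-5p, mmu-miR-34c-3p, mmu-miR-449a-5p, mmu-miR-449b and mmu-miR-449c-5p, written without the prefix for mouse from here on. They were read by 20 probes on 160 spots of each array, of which 0 were saturated.

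The arrays compared eyes of C57BL/6J mice in which form-deprivation myopia had been induced with the untreated fellow eyes, in retina and in sclera, to find the miRNAs that change when the eye becomes myopic. A frosted diffuser was fixed over the right eye at postnatal day 24, and the tissues were taken 10 days later, at postnatal day 34. The 4 groups were control retina and control sclera of left eyes without a diffuser, and myopic retina and myopic sclera of right eyes with one, and all the mice were of the same inbred strain. Each group had 3 arrays, each for a pool of tissue from 3 eyes, although the labels give 1 mouse identifier for a pool. The control was the other eye of treated animals, so an effect of the diffuser on both eyes would not be seen.

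Retina and sclera were separated by their known miRNAs. All 5 miRNAs of retinal neurons (among them miR-124-3p) were called higher in control retina than in control sclera, and all 5 of connective tissue (among them miR-199a-3p) were called lower. The number of detected miRNAs was 353 to 401 on the retina arrays and 274 to 317 on the sclera arrays, and the 75th percentile of signal ran from 1024 to 1414 in retina and from 276 to 803 in sclera. Control sclera pool 3 was the dimmest array. The 4 places of a slide held the 4 groups in an unvarying order on the 3 slides, and a place on the slide therefore cannot be told apart from a group.

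The mature sequences are shown because the 5p members share their seed and differ behind it, which is where probes could tell them apart. RefSeq sequences of build GRCm38.p6 were matched for 6 of the 8 names, and capitals mark the seed, bases 2 to 8 from the 5′ end.
miR-34a-5p: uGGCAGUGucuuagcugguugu
miR-34b-5p: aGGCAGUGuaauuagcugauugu
miR-449a-5p: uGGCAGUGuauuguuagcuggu
miR-449c-5p: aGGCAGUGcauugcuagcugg
miR-34b-3p: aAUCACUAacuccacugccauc
miR-34c-3p: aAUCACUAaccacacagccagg

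The seed GGCAGUG was present in all 4 of the 5p sequences and in 0 further names among the 1679 mature mouse names in the table, in which miR-34c-5p and miR-449b had no match and were therefore not counted. The 3p arms of miR-34b and miR-34c shared another seed, AUCACUA, again with 0 further names. Counted from the 5′ end without gaps, miR-449a-5p and miR-449c-5p were identical at 18 of 21 bases. By the same count, miR-34a-5p and miR-449a-5p were identical at 15 of 22, and miR-34a-5p and miR-34b-5p at 11 of 22. A gap was not allowed in this count, so a shift by 1 base lowers it.

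The members map to 3 places in the genome. Mature miR-34a-5p is at chr4:150068473-150068494 on the plus strand. Mature miR-34b-5p is at chr9:51103610-51103632 on the minus strand, and the Mir34b and Mir34c genes together span 612 bases within the annotated spans of Btg4 and Hoatz. Mature miR-449a-5p and miR-449c-5p are at chr13:113037549-113037570 and chr13:113036008-113036028 on the plus strand, and Mir449a, Mir449b and Mir449c span 1642 bases within Cdc20b. The annotation used gives gene spans only, so exon and intron were not distinguished.

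The probes of the array pair with the miRNA from its 3′ end and reach a different distance into the seed, which bears on how each member was measured. The longest probes of 4 members are given in DNA letters, and capitals mark the letters opposite seed bases.
miR-34a-5p: acaaccagctaagaCACTGC
miR-34b-5p: acaatcagctaattaCACTGCC
miR-449a-5p: accagctaacaataCACTGC
miR-449c-5p: ccagctagcaatgCAC

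The probe of miR-34b-5p covered 7 seed bases and those of miR-34a-5p and miR-449a-5p covered 6, while the miR-449c-5p probe of 16 bases covered 3. Among the 5p members shown above, the probes of each were set against the mature sequences of the others. The longest unbroken run of pairing was 9 bases, found between miR-34a-5p and miR-449a-5p and between miR-34b-5p and miR-449a-5p. As miR-34c-5p and miR-449b had no matched sequence, pairing with their probes or their sequences was not tested. The miR-449c-5p probe had a run of at most 7 bases with any other 5p member shown above.

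In the retina, miR-34a-5p, miR-34b-5p, miR-34c-5p and miR-449a-5p were detected on all 6 arrays. In the sclera, the 3 miR-34 members were detected on all 6 arrays and at lower signals, and the miR-449 members on 0 of 6. A name counts as detected where a probe signal is above 3 times its error, and the total gene signal is the sum over its detected probes in scanner units. The members miR-449c-5p and miR-449b were dim and detected only on some retina arrays, and miR-34b-3p and miR-34c-3p were detected on 0 of the 12 arrays. Thus 6 of the 8 names entered the tests over 443 miRNAs.

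**Figure D1:**
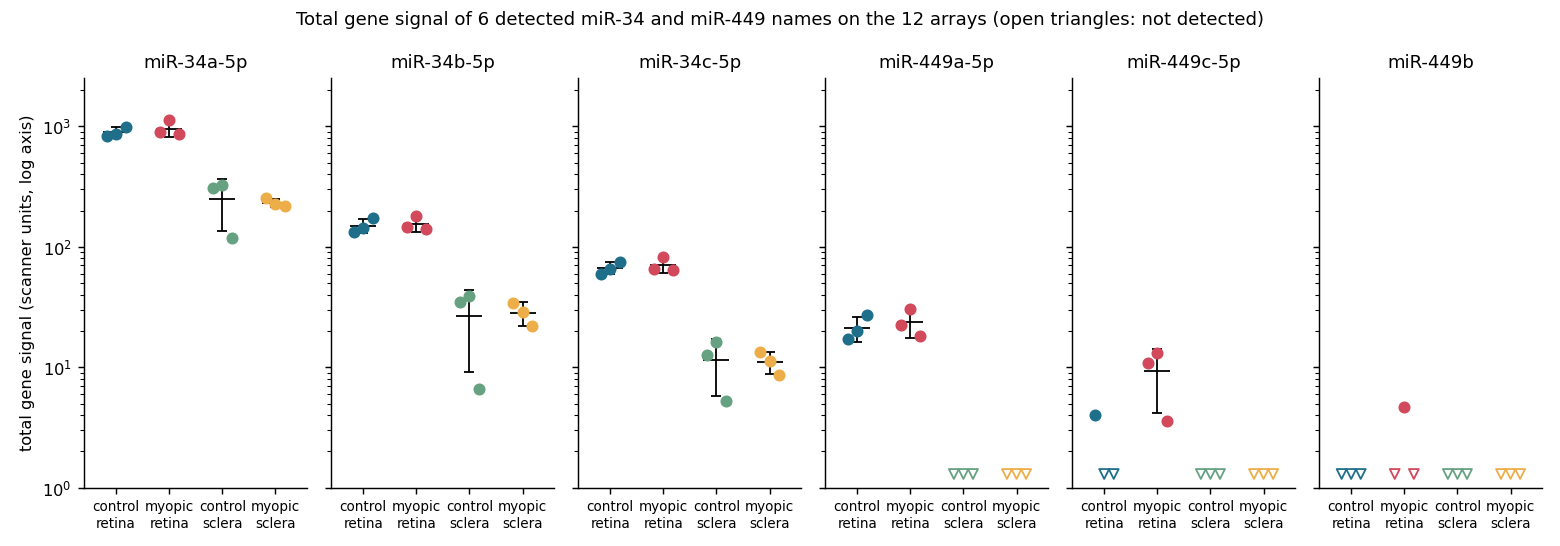
Total gene signal in scanner units (log axis) of the 6 members detected on at least 1 array, for the 3 pools of each group. Filled points are detected values, open triangles mark arrays without detection, and horizontal marks with bars are the mean ± SD of groups with 3 detected pools; miR-34a-5p lies between 829 and 1123 in retina and between 119 and 325 in sclera.

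The signal of miR-34a-5p, a direct target of p53, was 829, 860 and 993 in control retina pools 1 to 3 and 891, 1123 and 865 in myopic retina pools 1 to 3. In control sclera it was 308, 325 and 119, and in myopic sclera 254, 226 and 220. The retina groups overlapped with each other, as did the sclera groups, and every retina array was above every sclera array.

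The signal of miR-34b-5p was 133, 143 and 174 in control retina and 145, 180 and 141 in myopic retina. In control sclera it was 34.7, 38.7 and 6.54, and in myopic sclera 34.3, 28.9 and 21.8. The order of the tissues was that of miR-34a-5p, and control sclera pool 3 stood apart at the low end. On that array alone the 21-base probe of miR-34b-5p was not above 3 times its error. The total gene signal there left that probe out, whose probe signal was 3.28. The probe signal of the 22-base probe alone was 22.9, 25.8 and 6.54 in control sclera pools 1 to 3, so it was lowest there too.

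The signal of miR-34c-5p, which shares its transcript with miR-34b-5p, was 59.7, 65.9 and 74.5 in control retina and 65.8, 82.2 and 64.1 in myopic retina. In control sclera it was 12.7, 16.3 and 5.27, and in myopic sclera 13.3, 11.2 and 8.71. Its retina and sclera arrays did not overlap either.

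The signal of miR-449a-5p, the most studied miRNA of the Cdc20b locus, was 17.1, 20.04 and 26.9 in control retina and 22.3, 30.2 and 18.3 in myopic retina. The 2 retina groups overlapped, and the miRNA was undetected on the 6 sclera arrays. This pattern of detection, on every retina array and no sclera array, was shared with 45 other names.

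The signals of these 4 members rose and fell together over the retina arrays. Control pool 1 was the lowest of its group and myopic pool 2 the highest of its group for each of them, and myopic pool 2 also had the highest 75th percentile of all arrays, 1414. Over the 6 retina arrays the correlation of log2 total gene signal was 0.97 between miR-34a-5p and miR-34b-5p and 0.98 between miR-34b-5p and miR-34c-5p. The arrays share their overall brightness in these values. After scaling by the 75th percentile the same correlations were 0.96 and 0.96.

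Comparisons of groups were made on quantile-normalized log2 values with limma over 443 miRNAs, and a miRNA was called where its Benjamini-Hochberg adjusted p-value was below 0.05 and it differed 2-fold or more. In control eyes, 2 of the 6 tested members (miR-34b-5p and miR-449a-5p) were called between retina and sclera, both higher in retina, against 50.6% of all miRNAs tested called in either direction and 27.5% called higher in retina. In myopic eyes, 2 of the 6 members (miR-449a-5p and miR-449c-5p) were called, both higher in retina, against 58.9% of all miRNAs called in either direction and 32.5% called higher in retina. A count of 2 in 6 is near or below these shares, in comparisons in which 224 and 261 of the 443 miRNAs were called. In such bulk tissue, fewer cells of a type and less RNA per cell cannot be told apart.

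For miR-34a-5p, the quantile-normalized log2 level was 9.33 ± 0.08 (SD, n = 3) in control retina, 9.32 ± 0.02 in myopic retina, 8.81 ± 0.07 in myopic sclera and 8.65 ± 0.08 in control sclera. Retina was above sclera by 0.68 (SE 0.10, limma adjusted p = 0.000254) in control eyes and by 0.51 (SE 0.10, limma adjusted p = 0.00144) in myopic eyes. Both differences passed the p-value threshold and stayed under a 2-fold change, so neither was called. In this order of the 4 groups, the neighbours within a tissue did not pass the test.

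For miR-34b-5p, the log2 level was 6.80 ± 0.30 in control retina, 6.40 ± 0.29 in myopic retina, 6.16 ± 0.14 in myopic sclera and 5.80 ± 0.52 in control sclera (SD, n = 3). Control retina was above control sclera by 1.00 (SE 0.27, limma adjusted p = 0.0104), which lay on the fold threshold. Without control sclera pool 3, whose total left out the 21-base probe, the difference was 0.70 and no longer called. It also fell just below the threshold without control retina pool 2 (0.92) or 3 (0.87) and without any of the 3 myopic sclera pools (1.00 each). In myopic eyes the difference was 0.24 (SE 0.27, limma adjusted p = 0.443), and the arrays of the tissues overlapped.

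For miR-34c-5p, the log2 level was 5.69 ± 0.47 in control retina, 5.13 ± 0.24 in myopic retina, 5.02 ± 0.13 in myopic sclera and 4.82 ± 0.09 in control sclera (SD, n = 3). Control retina was above control sclera by 0.87 (SE 0.23, limma adjusted p = 0.00838), which passed the p-value threshold but stayed under the fold threshold. Without control retina pool 1 the difference was 1.14 and was called. In myopic eyes the difference was 0.11 (SE 0.23, limma adjusted p = 0.674).

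The size of these tissue differences followed the way the arrays were brought to 1 scale. With each array divided by its 75th percentile, retina was above sclera by 0.93, 1.81 and 1.65 in control eyes for miR-34a-5p, miR-34b-5p and miR-34c-5p, and by 0.84, 1.28 and 1.49 in myopic eyes. The differences of miR-34b-5p and miR-34c-5p were called in both kinds of eye on that scale, against 54.6% of all miRNAs called in control and 62.8% in myopic eyes (36.1% and 44.2% called higher in retina). Without any scaling the differences were 1.97, 2.85 and 2.69 in control eyes and 2.03, 2.47 and 2.68 in myopic eyes, and all were called, against 60.5% and 69.5% of all miRNAs (50.6% and 60% higher in retina).

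The scale also moved the median of all miRNAs. Over the 246 miRNAs detected on all 12 arrays, the median difference between control retina and control sclera was -0.24 with quantile normalization, 0.13 with the 75th percentile and 1.17 without scaling. In myopic eyes it was -0.32, 0.39 and 1.58. The 3 miR-34 members lay above that median in both kinds of eye under each of the 3 scalings. Against the median of all 443 miRNAs tested (0.30, 0.79 and 1.58 in control eyes and 0.36, 1.06 and 2.13 in myopic eyes, in the same order), they lay above it in control eyes. In myopic eyes miR-34b-5p and miR-34c-5p lay below it with quantile normalization, and miR-34a-5p lay below it with the 75th percentile and without scaling.

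**Figure D2:**
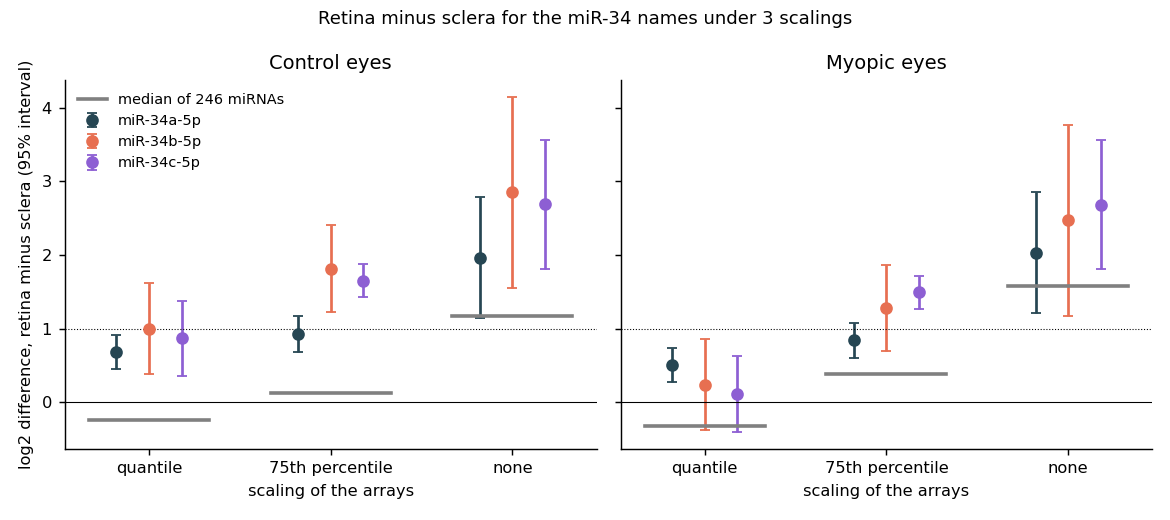
Log2 difference between retina and sclera with its 95% confidence interval for miR-34a-5p, miR-34b-5p and miR-34c-5p under 3 ways of scaling the arrays, in control eyes (left) and myopic eyes (right). Grey bars give the median of the 246 miRNAs detected on all arrays and the dotted line the 2-fold threshold; every point lies above the grey bar of its scaling, and the size grows from quantile normalization to no scaling.

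Single probes also had more signal in retina. Their spot signals were not scaled between arrays, so the overall brightness of the arrays enters the ratios. The 19- and 20-base probes of miR-34a-5p had 3.92 and 3.48 times the mean spot signal in control retina that they had in control sclera. The ratios were 6.04 and 5.18 for the 21- and 22-base probes of miR-34b-5p, and the ratio was 4.69 for the 20-base probe of miR-34c-5p. The 19-base probe of miR-34c-5p was above 3 times its error on the 6 retina arrays and on 0 sclera arrays, so that the total gene signal of miR-34c-5p adds 2 probes in retina and 1 in sclera.

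The sclera pools also carried signal of miRNAs of retinal neurons. The summed signal of the 5 miRNAs of retinal neurons was 197559 to 297315 on the retina arrays and 735 to 13205 on the sclera arrays, and all 5 were detected on every sclera array. Relative to the mean of the 6 retina arrays, it was 4.63%, 5.59% and 0.311% in control sclera pools 1 to 3 and 3.01%, 1.42% and 2.58% in myopic sclera. For miR-34a-5p the same percentages were 33.2%, 35.0% and 12.8% in control sclera and 27.4%, 24.4% and 23.7% in myopic sclera. For miR-34b-5p they ran from 4.28% to 25.3%, and for miR-34c-5p from 7.67% to 23.7%. On each sclera array the percentage of each miR-34 member was above that of the retinal list, and both were lowest in control sclera pool 3, the dimmest array. After scaling by the 75th percentile, the log2 values of control sclera pools 1 to 3 were 8.46, 8.28 and 8.37 for miR-34a-5p, 5.31, 5.21 and 4.19 for miR-34b-5p and 3.86, 3.96 and 3.87 for miR-34c-5p. Pool 3 was then the lowest of the control pools for miR-34b-5p, where its total left out the 21-base probe. The part of that omission in the low value was not tested. Pool 3 was not the lowest for miR-34a-5p or miR-34c-5p. The part of retinal RNA in the sclera values was not tested.

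**Figure D3:**
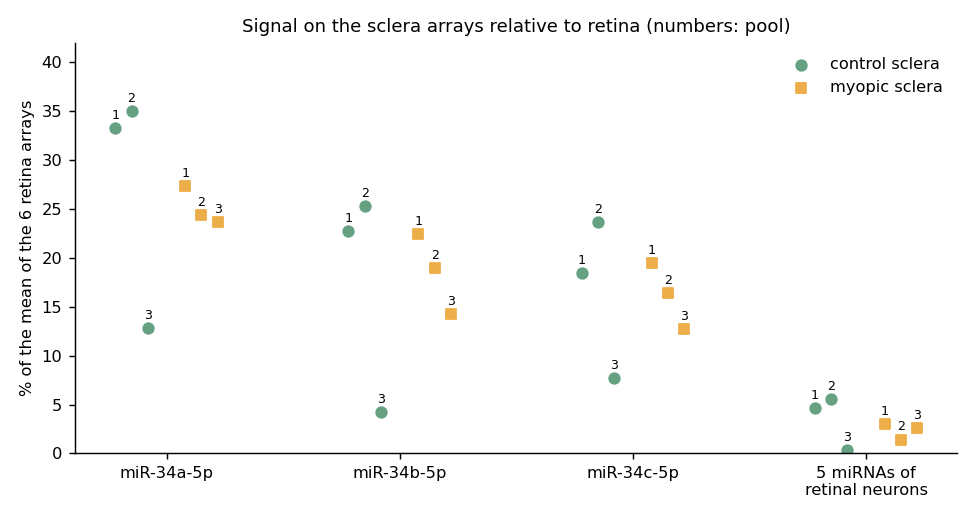
Total gene signal of miR-34a-5p, miR-34b-5p and miR-34c-5p and summed signal of 5 miRNAs of retinal neurons on the 6 sclera arrays, as a percentage of the mean of the 6 retina arrays; the small numbers are the pools. The miR-34 members lie between 4.28% and 35.0% and the retinal list between 0.311% and 5.59%, and control sclera pool 3 is the lowest point of each column.

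As miR-449a-5p was undetected in the sclera, its fitted differences are set by the floor and are not measured sizes. On the quantile scale its level was 4.06 ± 0.91 in control retina and 3.21 ± 0.20 in myopic retina (SD, n = 3), with both sclera groups at the floor of -1. For a bound, signals were scaled by the 75th percentile and each sclera array was placed at its lowest detected signal or at the brightest probe of the miRNA, whichever was higher. For miR-449a-5p, retina lay 3.36-fold above this placement in control eyes and 3.62-fold above it in myopic eyes. The lowest detected signals of the sclera arrays were 2.41 to 3.32. The 20-base probe of miR-449a-5p had an error of 1.53 to 2.11 there, and 3 times that error lies above the placement. A sclera signal above the placement could thus go undetected, so for miR-449a-5p these folds are not lower limits. Neither fold was tested. The floor-set differences on the quantile scale were called in control eyes (limma adjusted p = 1.62e-06) and in myopic eyes (limma adjusted p = 4.56e-06). Those p-values rest on the floor given to the sclera arrays, which has no spread.

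The signal of miR-449a-5p came from its 20-base probe. That probe had a mean spot signal between 26.3 and 48.9 on the retina arrays and between 0.0391 and 4.296 on the sclera arrays. The 19-base probe, which is shorter by a base at the seed end, was between 4.52 and 11.001 in retina and was above 3 times its error on 0 arrays.

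Between myopic and control retina, 0 of the 6 tested members were called, against 0.226% of all miRNAs (1 of 443). By unadjusted p under 0.05, the limma fit gave 3 members and 130 of all miRNAs tested. For miR-34a-5p the difference was -0.01 (95% interval -0.24 to 0.22, limma adjusted p = 1). The difference was -0.40 (SE 0.27, limma adjusted p = 0.365) for miR-34b-5p, -0.56 (SE 0.23, limma adjusted p = 0.152) for miR-34c-5p and -0.85 (SE 0.36, limma adjusted p = 0.157) for miR-449a-5p. Among these 4 members, detected on all retina arrays, the difference on the quantile scale was more negative the dimmer the member. Those of the dimmer miR-449c-5p (1.87) and miR-449b (0.26), which were undetected on some retina arrays, were above 0. In same-numbered pools, miR-34b-5p and miR-34c-5p were lower in the myopic retina in 3 of 3 pairs on the quantile scale, while their total gene signal was higher in 2 of 3 pairs.

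This order was shared by other miRNAs of the same brightness. Among the 329 miRNAs detected on all 6 retina arrays, the median difference was -0.08 for the 60 with a mean log2 level from 8 to 10, where miR-34a-5p lay. It was -0.30 for the 87 from 6 to 8, with miR-34b-5p, and -0.61 for the 80 from 4 to 6, with miR-34c-5p. It was -0.87 for the 41 from 2 to 4, with miR-449a-5p. The members lay 0.02 to 0.10 from the median of their brightness class.

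With the 75th percentile as the scale, the same members differed by -0.01, -0.06, -0.03 and 0.03, and the medians of the 4 brightness classes lay between -0.02 and 0.06. The direction for miR-449a-5p thus turned with the scale. Without scaling, all 4 differences were above 0, at 0.10, 0.05, 0.08 and 0.14.

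**Figure D4:**
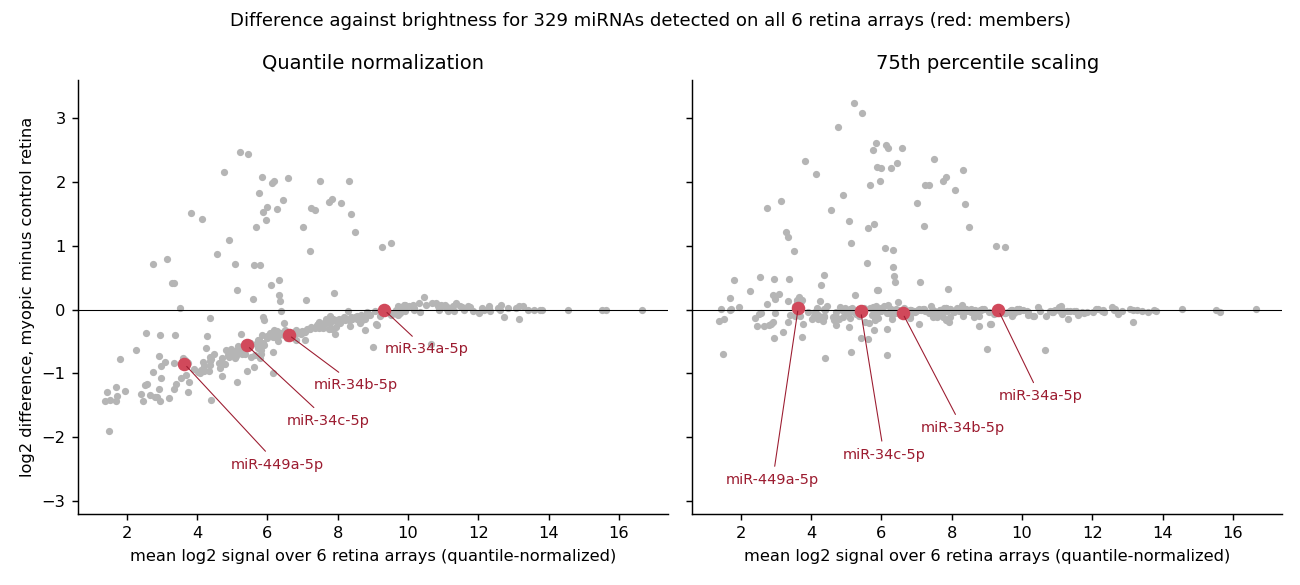
Log2 difference between myopic and control retina against the mean quantile-normalized log2 signal of the 6 retina arrays, for the 329 miRNAs detected on all of them (grey) and the 4 members among them (red), with differences from quantile normalization (left) and from scaling by the 75th percentile (right). On the left the members follow the main band of grey points from -0.01 for miR-34a-5p down to -0.85 for miR-449a-5p, and on the right they lie between -0.06 and 0.03.

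On the quantile scale, whether members were called in this comparison depended on control retina pool 1. Its quantile-normalized levels were the lowest of the control pools for the 4 members, at 9.24 for miR-34a-5p, 6.45 for miR-34b-5p, 5.17 for miR-34c-5p and 3.07 for miR-449a-5p. Without it, 2 of the 6 members were called, miR-449a-5p at -1.36 (limma adjusted p = 0.000785) and miR-449c-5p at 2.62 (limma adjusted p = 2.48e-05). The background without that array was 27.6% of all miRNAs called, against 0.226% with it. The numbers of detected miRNAs were 372 on this array, 362 and 353 on the other control retina arrays and 376 to 401 on the myopic ones.

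The signal of miR-449c-5p was 4.03 in control retina pool 1 and undetected in pools 2 and 3, and it was 10.9, 13.3 and 3.56 in the myopic retina pools. All 3 myopic pools and 1 of the 3 control pools were thus above detection, and the groups overlapped, since myopic pool 3 was below control pool 1. Between pools of the same number it was higher in the myopic retina in 3 of 3 pairs, in 2 of which the control pool was undetected. The fitted difference was 1.87 (SE 0.56, limma adjusted p = 0.134) and was not called, and its size depends on the floor given to the undetected pools. This miRNA was among those the study listed as changed on these arrays, so the value is a description and not independent of that list. Its pattern of detection was shared with 15 other names. In the sclera it was undetected on all 6 arrays. By the bound, which was not tested, it was at least 1.25-fold higher in myopic retina than in myopic sclera, with no bound above 1 in control eyes. The call in myopic eyes (limma adjusted p = 0.00197) belongs to a difference of 2.65 that is set by the floor in sclera.

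Of its 4 probes, of 13 to 16 bases, only the 16-base probe was above 3 times its error on any array. The mean spot signal of that probe was 12.1, 1.59 and -2.09 in control retina and 32.8, 40.2 and 10.8 in myopic retina, and it was below 0 on the 6 sclera arrays. The 3 shorter probes stayed below 0 on all 12 arrays. They cover 0, 1 and 2 seed bases, against 3 for the 16-base probe.

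For miR-449b, whose gene lies between those of the other miR-449 members, myopic retina pool 2 alone gave a detection, at a total gene signal of 4.70. Its 18-base probe had a mean spot signal of 5.18, 0.923 and 0.832 in control retina and 7.39, 14.2 and 1.90 in myopic retina, and below 0 on the sclera arrays. Detection of a miRNA at this brightness is a matter of a few units of signal, since the lowest detected signal of an array was 2.41 to 4.70.

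The 3p arms miR-34b-3p and miR-34c-3p gave no detection. The 16-base probe of miR-34b-3p had a mean spot signal of 5.35, 2.66 and 1.41 in control retina and 5.05, 12.2 and 3.21 in myopic retina. On the sclera arrays it was between -1.18 and 1.36. The 14-base probe of miR-34c-3p had a mean of at most 2.80 on any array. Control pool 1 was the highest control retina pool for the 16-base probe of miR-449c-5p, the 18-base probe of miR-449b and the 16-base probe of miR-34b-3p, and myopic pool 2 was the highest of all arrays. Within control retina, miR-449a-5p was lowest in pool 1, so the dim members did not share the order of pools.

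**Figure D5:**
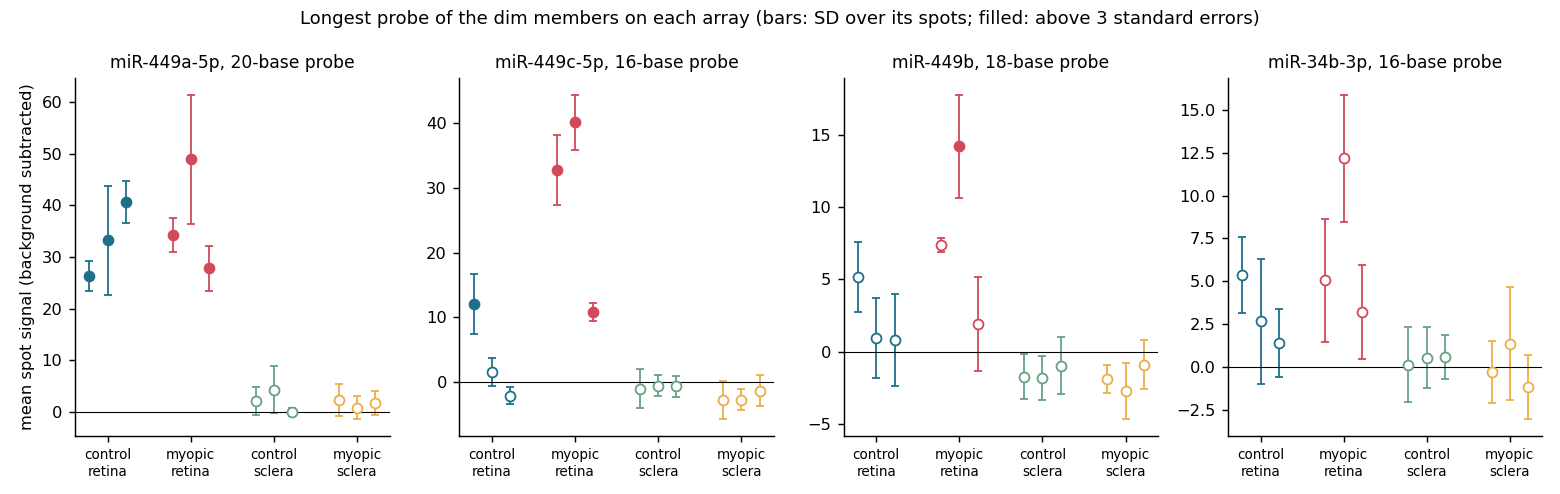
Mean background-subtracted spot signal, in scanner units on linear axes of different range, of the longest probe of miR-449a-5p, miR-449c-5p, miR-449b and miR-34b-3p for the 3 pools of each group; bars are the SD over the spots of the probe on that array and filled points are above 3 times the error. The sclera arrays lie near 0 in all 4 panels, and miR-449c-5p reaches 40.2 in myopic retina pool 2.

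Between myopic and control sclera, 0 of the 6 members were called, against 0% of all miRNAs (0 of 443). At an unadjusted p under 0.05, limma gave 0 members and 13 of all miRNAs. The differences were 0.16 (95% interval -0.07 to 0.39) for miR-34a-5p, 0.36 (-0.26 to 0.98) for miR-34b-5p and 0.20 (-0.31 to 0.71) for miR-34c-5p, with limma adjusted p = 1 for each. All 3 myopic sclera arrays of miR-34c-5p lay above the control ones on the quantile scale (4.91 to 5.17 against 4.72 to 4.89), as did those of 2.93% of all miRNAs tested, whereas its signals overlapped. The difference of miR-34b-5p turned on control sclera pool 3, whose total left out the 21-base probe. Without that pool the difference was 0.065. The miR-449 members were undetected in both sclera groups and gave no value here.

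The change in retina was also set against the change in sclera in the same fit. Again 0 of the 6 members were called, against 0.226% of all miRNAs. The difference between the changes was -0.17 (SE 0.14) for miR-34a-5p, -0.76 (SE 0.39) for miR-34b-5p and -0.76 (SE 0.32) for miR-34c-5p, with limma adjusted p = 0.498, 0.38 and 0.38. Without control retina pool 1, miR-34c-5p, miR-449a-5p and miR-449c-5p were called in this comparison, against 25.3% of all miRNAs. On the scale of the 75th percentile the values of the 3 miR-34 members were -0.08, -0.53 and -0.16.

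Other miRNAs known to be induced by p53 or to mature with its help were described beside the family. Of 8 such miRNAs, 7 were tested, and miR-215-5p was detected on 0 arrays. Between control retina and control sclera, 2 were called higher in retina, miR-107-3p (1.04) and miR-15a-5p (1.34), and 2 lower, miR-145-5p (-4.34) and miR-143-3p (-3.13). This is 4 of 7, against 50.6% of all miRNAs called. The last 2 are also miRNAs of smooth muscle and connective tissue. The median of the 7 was 0.58, against 0.30 over all 443 miRNAs tested. Between myopic and control retina, 1 of the 7 was called, miR-145-5p at -3.85 (SE 0.37, limma adjusted p = 0.000918), against 0.226% of all miRNAs, and the median of the 7 was -0.33, against -0.12 over all miRNAs tested. That miRNA was undetected on the 3 myopic retina arrays, so its size is set by the floor. On the scale of the 75th percentile the median of the 7 was -0.02. The summed signal of the connective tissue list, to which miR-145-5p also belongs, was 110, 135 and 373 in control retina and 106, 154 and 113 in myopic retina, and its part in that result was not tested.

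The miRNAs whose pattern over the 12 arrays was most like that of each miR-34 member were sought among the 245 other miRNAs detected on all arrays. For miR-34a-5p they were miR-29c-3p (r = 0.98), miR-15a-5p (r = 0.98) and miR-218-5p (r = 0.97). For miR-34b-5p they were miR-154-3p (r = 0.98), miR-381-3p (r = 0.96) and miR-376b-3p (r = 0.96). For miR-34c-5p the closest were miR-17-3p (r = 0.89), miR-350-3p (r = 0.87) and miR-30a-3p (r = 0.85). These are Pearson correlations of quantile-normalized log2 values over 12 arrays of 2 tissues, so a shared difference between the tissues and the scaling both enter them. No miR-34 member was among the 3 nearest of another. The correlation was 0.77 between miR-34a-5p and miR-34b-5p, 0.69 between miR-34a-5p and miR-34c-5p and 0.78 between miR-34b-5p and miR-34c-5p. With the 75th percentile as the scale the same correlations were 0.92, 0.98 and 0.94.

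In the log2 table that the authors deposited, 5 of the 8 members are listed, and miR-449b, miR-34b-3p and miR-34c-3p are not. On that table, miR-34a-5p had a mean of 9.26 ± 0.09 in control retina, 9.24 ± 0.03 in myopic retina, 8.61 ± 0.08 in control sclera and 8.76 ± 0.07 in myopic sclera (SD, n = 3). The level of miR-449c-5p was 0.67 in control retina pool 1, -1 in pools 2 and 3, and 1.33, 1.07 and 0.45 in the myopic retina pools, where -1 stands for an undetected array. The numbers of members called were 0, 0, 2, 2 and 0 on these values too, in the order of myopic against control retina and sclera, retina against sclera in control and in myopic eyes, and the difference between the changes.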

How the data were processed

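Retina and sclera RNA was hybridized in a single colour (Cy3) to 12 Agilent mouse miRNA arrays. The authors deposited the Feature Extraction output of each array, with background-subtracted intensity per spot, probe and gene and no scaling between arrays, and a log2 table, quantile normalized after a smallest signal of 0.5. Per the labels, Partek 6.6 was used. An undetected miRNA has a total gene signal of 0.1 in the files. The deposited detection flag per gene was also used.

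Here, total gene signals under 0.5 were set to 0.5, quantile normalized over 696 names and log2 transformed, and the 443 miRNAs detected on at least 1 array were fitted with limma 3.58.1 in R 4.3.3 (lmFit, eBayes, 4 groups, 8 residual degrees of freedom). P-values are two-sided and Benjamini-Hochberg adjusted over all 443, and the fit was tested on simulated data. Over 437 miRNAs the deposited log2 values and these correlated at 0.999. Whether 0.5 was a floor or an added constant is not given in the sources used here. Groups followed the sample titles. Control and myopic pools of a number have the same mouse identifier in the labels and lie on 1 slide, so the numbers pair them. Deviations from the group means of same-numbered pools had correlations of 0.38, -0.46 and 0.59 in retina and -0.14, -0.16 and -0.001 in sclera over 246 miRNAs. The named miRNAs are all members, the 3 nearest in pattern to each member detected on all arrays, and up to 2 in each direction from the p53 list. The members and lists were chosen with earlier results of these data known. Arrays have no count depth, and 3 pools per group limit the precision. The 75th percentile was taken over the 246 miRNAs detected on all arrays. Alternatives were another floor, scaling, background, spot summary, filter and fit, the deposited values, and leaving out each array. Figures were drawn with Python 3.11.15 and matplotlib 3.10.9.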

Additional observations from a re-analysis of the deposited data

How the results depend on the processing

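Between control retina and control sclera, 2 members were called. The number was 1 with a constant added in place of the floor, with processed spot signals, with miRNAs detected on all arrays only (3 members left) and with the groups compared alone, 4 without normalization, 3 with the 75th percentile and 0 with normexp background correction, where 66 of all miRNAs were called in place of 224. Between myopic retina and myopic sclera it was 2. It was 1 with a floor at each array's lowest detection and with processed spot signals, 4 with the 75th percentile and 5 without normalization. It was 0 with normexp (73 of all miRNAs in place of 261) and 0 with miRNAs detected on all arrays only. The normexp correction added an offset of 50 to every spot, which shrinks the folds of dim miRNAs. That offset lies above the mean spot signals of miR-34b-5p and miR-34c-5p in sclera and of miR-449a-5p in retina. The part of the offset in the 0 calls with normexp was not tested. Leaving out each array in turn gave 1 to 3 members called between control retina and control sclera, 2 to 2 between myopic retina and myopic sclera, 0 to 2 between myopic and control retina, 0 to 0 in sclera and 0 to 3 for the difference between the changes. The 2 and the 3 came from the fit without control retina pool 1, where 122 and 112 of all miRNAs were called in place of 1 and 1. The replicate block, which pairs pools of a number, left 0, 0, 2, 2 and 0 members called and changed no call of a member. Over all miRNAs, the block gave 262 calls in place of 261 between myopic retina and myopic sclera, and 0 in place of 1 for the difference between the changes, where the call of miR-145-5p was lost.

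Values that turned sign were small or followed the scaling. Between myopic and control retina, miR-449a-5p was 0.031 with the 75th percentile and 0.14 without normalization, and without normalization miR-34a-5p was 0.096, miR-34b-5p 0.051 and miR-34c-5p 0.080. Leaving out each array gave -0.051 to 0.030 for miR-34a-5p, with values above 0 without control pool 3 (0.030) or myopic pool 1 (0.0019). For the difference between the changes, miR-34a-5p was 0.067 and miR-449a-5p 0.14 without normalization, and miR-449a-5p was 0.031 with the 75th percentile. Between myopic retina and myopic sclera, miR-34c-5p ran from -0.0080 to 0.26 when each array was left out, below 0 without myopic retina pool 3 only. Apart from these scalings the cause was not tested. The lowest detected signals of 2.41 to 4.70 limit what can be said of miR-449b and miR-449c-5p. The 3p arms could go undetected at higher signals. On myopic retina pool 2 the 16-base probe of miR-34b-3p had a probe signal of 8.03 with an error of 3.07 and was not detected. Of 292 member differences under alternatives other than leaving out an array, 267 kept their direction and their side of the threshold, 9 lost a call, 8 gained one and 8 turned sign.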
